A study of Mus musculus with 4 samples.

Results

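The genes that show peptides and other antigens to T cells were followed in the liver of high-fat-fed male C57BL/6 mice that received an antisense oligonucleotide (ASO, a short synthetic nucleic acid that pairs with a transcript) labelled against Plin2, a lipid droplet coat protein, or a scrambled control ASO. The dose was 25 mg/kg in both groups, injected into the peritoneal cavity 2 times weekly over 4 weeks. Each of 4 Agilent arrays carried 2 colours: the liver of 1 control mouse (mice 1, 2, 4 and 5 on arrays 1 to 4) labelled with Cy5 (red), and that of 1 mouse from the group labelled Plin2-ASO (mice 6, 7, 9 and 10) with Cy3 (green). All values are log2 ratios in which a positive number means a higher signal in the livers labelled Plin2-ASO. The direction is taken from the dye that the labels give for each group, and because no array had the dyes exchanged, a dye effect of a single probe and the treatment cannot be told apart. The members were the probes whose array name begins with H2- (without the H2-Bf and H2-Ke genes) or is B2m, Cd74, C2ta (now Ciita), Tap1, Tap2, Tapbp, Cd1d1, Mr1 or Calr3. They were 66 of 41174 probes and named 43 of 27667 genes, 32 of class I and 11 of class II. No probe was named Nlrc5 or Erap1 in the array files. The transcript of Erap1 had a probe under an older name, as had H2-Eb2, and neither was counted as a member.

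Class I molecules are a heavy chain paired with beta-2 microglobulin. They are made by nearly all nucleated cells and carry peptides that the proteasome cut from proteins of the cell itself. Class II molecules are a pair of alpha and beta chains found chiefly on dendritic cells, macrophages and B cells. They carry peptides cut by lysosomal proteases, and in the liver they mark the non-parenchymal immune cells much more than hepatocytes. Ciita switches on the class II genes, whereas interferon gamma raises both classes.

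The targeted transcript was checked first. Plin2 read 0.24, 0.15, 0.83 and 0.36 on arrays 1 to 4, with a mean of 0.40 ± 0.15 (SE, n = 4, adjusted p = 0.156), so the knockdown that the label names was not seen at this probe, and the groups are named by their labels throughout. Array 3 stood apart from the others. Over genes, the mean correlation of its ratios with the remaining arrays was r = 0.329, against 0.514 to 0.655 for arrays 1, 2 and 4, and 7.61% of its spots were marked as outliers, against 1.5% to 3.83%. Median spot signals were 244 to 637 over median local backgrounds of 55.0 to 63.5, and no spot was saturated.

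A gene was tested when either channel of its probe stood well above background on 3 or more arrays, and the ratio was measured on as many, which 34 members passed, 25 of class I and 9 of class II. The other 9 were H2-M1, H2-M10.1, H2-M10.3, H2-M10.4, H2-M10.5, H2-M10.6, H2-M11 and H2-Ea, which were above background on 0 arrays, and H2-Ob, which was above it on 2 arrays in each group. The M1 and M10 genes are known from the vomeronasal organ, and the b haplotype of C57BL/6 mice does not transcribe H2-Ea.

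Of the 25 class I genes 1 rose and 0 fell in limma's fit over all genes (Benjamini-Hochberg, threshold 0.05), and of the 9 class II genes 0 passed. Over all 18042 genes tested, 9.76% passed that threshold, 3.69% higher and 6.07% lower. Without adjustment 5 of 25 class I genes and 0 of 9 class II genes had p under 0.05, where 4859 of the 18042 genes did. The median log2 ratio was 0.06 over class I and -0.26 over class II, a difference of -0.32, beside -0.03 over all genes. Of the 34 members 17 had a mean above 0 and 17 below. In these bulk samples fewer cells of a type and less RNA per cell cannot be told apart.

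**Figure D1:**
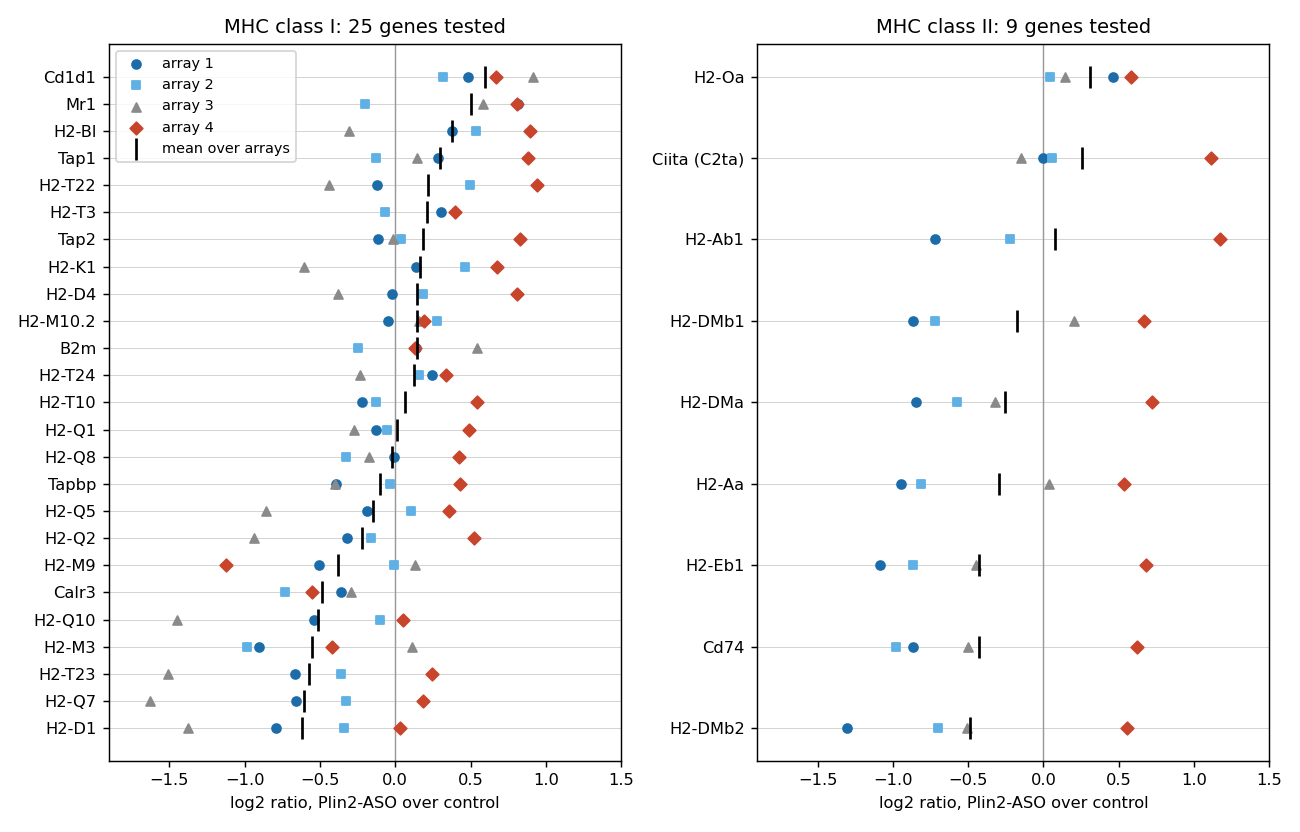
Log2 ratio of the livers labelled Plin2-ASO over control (x axis) for every member tested (y axis), with 1 symbol for each of the 4 arrays and a black bar for the mean, class I on the left and class II on the right. The class II genes lie left of 0 on arrays 1 and 2 and right of it on array 4, with H2-Oa and Ciita as exceptions. Of the class I genes, 8 of 25 lie right of 0 on array 1, 9 of 25 on array 2, 7 of 23 on array 3 and 22 of 25 on array 4.

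The classical class II chains differed more between arrays than between the groups on average. H2-Eb1, the beta chain of the I-E molecule, read -1.08, -0.87, -0.45 and 0.68 on arrays 1 to 4, a mean of -0.43 ± 0.28 (SE, n = 4, adjusted p = 0.371, 95% interval -1.09 to 0.23). H2-Aa, the I-A alpha chain, read -0.95, -0.81, 0.04 and 0.54, a mean of -0.30 (adjusted p = 0.507). Both were therefore lower in the treated mouse on arrays 1 and 2 and higher on array 4. H2-Ab1, the I-A beta chain, read -0.72, -0.22 and 1.17 on arrays 1, 2 and 4 at its brightest probe, which was marked as an outlier on array 3, and the fit without that array gave a mean of 0.08 (adjusted p = 0.917). Its other 3 probes had means of -0.34, 0.00 and -0.21 and showed the same order, low on arrays 1 and 2 and high on array 4.

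The genes that load class II molecules followed the chains. Cd74, the invariant chain that blocks the groove until the endosome, read -0.87, -0.98, -0.50 and 0.62, a mean of -0.43 ± 0.27 (SE, adjusted p = 0.342). H2-DMb2, a beta chain of the DM exchange factor and the lowest class II gene on average, read -1.31, -0.70, -0.51 and 0.55, a mean of -0.49 ± 0.28 (adjusted p = 0.300). H2-DMa read -0.84, -0.57, -0.32 and 0.72 and H2-DMb1 -0.86, -0.72, 0.20 and 0.67, with means of -0.26 and -0.18. Each of these 4 genes was below 0 on arrays 1 and 2 and above it on array 4. H2-Oa, the alpha chain of the DO molecule that restrains DM, was the exception among them, at 0.46, 0.04, 0.14 and 0.58, a mean of 0.31 (adjusted p = 0.228). Another H2-Oa probe, at the adjoining bases of the transcript, had a mean of -0.25, so the 2 probes differed in sign. Ciita, the master activator of class II transcription, read 0.00, 0.06, -0.15 and 1.11, a mean of 0.26 (adjusted p = 0.507): it was near 0 on arrays 1 to 3 and high on array 4.

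Array by array, the class II median was -0.86, -0.70, -0.23 and 0.67 (SD 0.69 over the 4 arrays). The class I median was -0.12, -0.07, -0.29 and 0.42 (SD 0.31), and the median over all genes stayed within -0.04 and 0.01. Class II minus class I was therefore -0.74, -0.63, 0.06 and 0.24 (SD 0.49), which changed sign between arrays. Low on arrays 1 and 2 and high on array 4 was the pattern of 6 of the 8 class II genes measured on all arrays, of 8 of 23 such class I genes, and of 1089 of 16130 genes overall (6.75%). That pattern was chosen after the values were seen.

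The levels of single mice show the array differences in each channel. Each mouse was measured in 1 dye on 1 array, so a difference of a mouse and a difference of its channel cannot be told apart. Expressed as the deviation of each mouse from the mean of a gene over the 8 mice, the class II median was 0.33, 0.40, -0.03 and 0.04 in control mice 1, 2, 4 and 5. It was -0.62, -0.30, -0.32 and 0.64 in mice 6, 7, 9 and 10 of the group labelled Plin2-ASO. By these medians mice 6, 7 and 9 lay below all 4 controls and mouse 10 above them. Gene by gene, mice 6, 7 and 9 were below every control in 3 of the 8 class II genes (H2-Eb1, Cd74 and H2-DMb2), in 5 of 23 class I genes and in 13.2% of all 16130 genes measured on every array. H2-Aa was not among them: its level was 11.81, 12.06, 11.18 and 11.62 in the controls and 10.86, 11.25, 11.21 and 12.15 in mice 6, 7, 9 and 10. For H2-Eb1 the log2 level was 11.63, 11.65, 11.20 and 11.37 in the controls and 10.54, 10.79, 10.76 and 12.06 in mice 6, 7, 9 and 10, and for Cd74 it was 14.64, 14.65, 14.14 and 14.36 against 13.77, 13.67, 13.64 and 14.99. Mouse 10 held the highest level of all 8 mice in 8 of 8 class II genes, Ciita and H2-Oa included, in 11 of 23 class I genes and in 10.9% of those 16130 genes. The class I medians were 0.11, 0.11, -0.02 and -0.01 in the controls and -0.04, -0.01, -0.33 and 0.29 in mice 6, 7, 9 and 10.

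**Figure D2:**
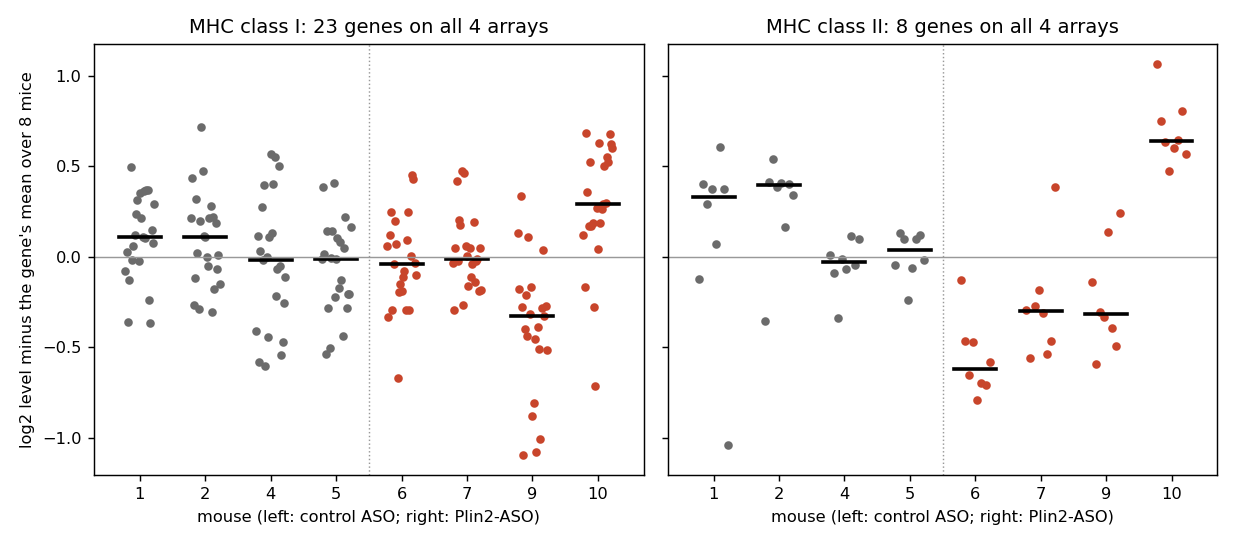
Log2 level of each member in each mouse minus the mean of that member over the 8 mice (y axis), for the 23 class I and 8 class II genes measured on all 4 arrays. Points are genes, black bars are medians, control mice are grey and mice labelled Plin2-ASO red. In class II, mice 6, 7 and 9 have medians of -0.62 to -0.30 and mouse 10 of 0.64, and the controls lie between -0.03 and 0.40.

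Without array 4, the array of mouse 10, the class II median was -0.57, with 5 of 9 genes at an unadjusted p under 0.05, where 3741 of 18042 genes were, and 0 past the adjusted threshold. Cd74 then had a mean of -0.78 (adjusted p = 0.0542) and H2-Eb1 of -0.80 (adjusted p = 0.0609). Both genes were above 0 on array 4 and below 0 on average, so leaving that array out could only lower their means. Without array 1, 2 or 3 the class II median was -0.06, -0.12 and -0.31, and 0 genes passed in each case. The median was below 0 in each of these fits, and its size moved by more than 1.5 times on leaving out array 1, 2 or 4.

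Class II promoters carry an X box, bound by the RFX complex, and a Y box, bound by NF-Y, which together with Ciita drive the genes jointly. The promoter stretches of 3 class II genes are shown because the class II genes moved together from array to array (RefSeq, GRCm38.p6, all 5′ to 3′ on the strand of the gene, with matches in capitals). H2-Eb1 is at chr17:34305767-34305844 on the plus strand, with an X box match whose first base lies at -92 from the start and Y box matches at -59 and -35. H2-DMb1 is at chr17:34153088-34153142 on the plus strand, with an X box match at -95 and a Y box match at -61. H2-Aa is at chr17:34287859-34287879 on the minus strand, with a Y box match at -48.
H2-Eb1: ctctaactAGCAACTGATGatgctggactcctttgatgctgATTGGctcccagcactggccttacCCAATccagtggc
H2-DMb1: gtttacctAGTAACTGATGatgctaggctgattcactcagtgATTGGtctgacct
H2-Aa: attttctgATTGGttctggcg

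The X box was searched as AG, any 2 bases, AC, any 2 bases and ATG, and the Y box as ATTGG, each on both strands, in windows from 250 bases before to 50 bases after each start. Of the 43 member genes 30 were in the promoter table, 23 of class I and 7 of class II. The X box letters were in 4 of the 7 class II genes (H2-Eb1, H2-DMb1, H2-Oa and H2-Ob), in 6 of 23 class I genes and in 3.09% of all 32851 promoters. The Y box letters were in 7 of 7 class II genes, 20 of 23 class I genes and 37.4% of all promoters. H2-Oa, which did not share the array pattern of most other class II genes at either probe, had both matches, with the X box at -141. Whether the motifs bear on the array values was not tested.

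Among the class I heavy chains, H2-D1 and H2-K1 read differently. H2-D1, a classical heavy chain and the lowest member on average, read -0.79, -0.34, -1.37 and 0.03, a mean of -0.62 ± 0.23 (SE, n = 4, adjusted p = 0.140). H2-K1, the other classical chain of this strain, read 0.14, 0.46, -0.61 and 0.67, a mean of 0.17 (adjusted p = 0.670). B2m, the shared light chain, read 0.14, -0.25, 0.54 and 0.13, a mean of 0.14 (adjusted p = 0.616). H2-D1 was thus below 0 on 3 arrays and H2-K1 and B2m above 0 on 3, and no mean differed from 0 past the threshold.

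The promoters of H2-K1 and H2-D1 are shown because the same pair of motifs stands in both. They hold a kappa B site, bound by NF-kappa B, and an interferon response element, in capitals beside Y box matches. H2-K1 is at chr17:34000351-34000466 on the minus strand and H2-D1 at chr17:35262915-35263053 on the plus strand.
H2-K1: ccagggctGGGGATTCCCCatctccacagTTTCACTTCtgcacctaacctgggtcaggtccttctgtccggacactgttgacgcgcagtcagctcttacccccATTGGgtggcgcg
H2-D1: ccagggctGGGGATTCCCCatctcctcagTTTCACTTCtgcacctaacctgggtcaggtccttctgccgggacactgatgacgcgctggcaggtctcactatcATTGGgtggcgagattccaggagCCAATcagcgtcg

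The kappa B letters (GGGGA, any base, TCCCC, on both strands) were in these 2 members only, among 16 of 32851 promoters (0.0487%). The interferon letters GAANNGAAA, searched on both strands, were in 5 of 23 class I genes (H2-K1, H2-D1, H2-Q7, H2-Q10 and H2-M3), 0 of 7 class II genes and 7.52% of all promoters. Of these 5 genes, H2-K1 had a mean above 0 and the other 4 had means from -0.62 to -0.51, each at its brightest probe. Further probes lay nearer 0, with means of -0.11 for H2-M3 and of -0.08, 0.07 and 0.10 for H2-Q10.

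Peptide transport and loading genes of class I did not pass the threshold. Tap1 and Tap2, the pair that pumps peptides into the endoplasmic reticulum, read 0.28, -0.12, 0.14 and 0.88 and -0.12, 0.04, -0.01 and 0.83, with means of 0.30 and 0.19 (adjusted p = 0.343 and 0.565). Tapbp, tapasin, which holds the class I molecule at that pump, read -0.39, -0.03, -0.40 and 0.43, a mean of -0.10 (adjusted p = 0.762). All 3 were highest on array 4. Calr3, a relative of the chaperone calreticulin known from the testis, read -0.36, -0.73, -0.29 and -0.55, a mean of -0.48 ± 0.14 (SE, adjusted p = 0.0699), below 0 on all 4 arrays but short of the threshold.

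The class I-like lipid presenter Cd1d1, which shows lipids to natural killer T cells, was the gene that rose. It read 0.48, 0.32, 0.92 and 0.67, a mean of 0.60 ± 0.15 (SE, n = 4) or 1.51-fold, with an adjusted p of 0.0476. All 4 arrays were above 0. The log2 levels were 12.71, 12.80, 12.48 and 13.08 in the controls and 13.19, 13.11, 13.40 and 13.75 in the mice labelled Plin2-ASO. The call lay close to the threshold: without array 1, 2 or 4 the mean was 0.63, 0.69 and 0.57 with adjusted p-values of 0.203, 0.142 and 0.140, and without array 3 it was 0.49 (adjusted p = 0.0196). Mr1, which presents vitamin B metabolites to mucosal T cells, read 0.81, -0.20, 0.58 and 0.81, a mean of 0.50 (adjusted p = 0.158). Of 8 further class I-like genes that bear no H2 name, Cd1d2, the close copy of Cd1d1, rose (0.78, adjusted p = 0.0493), Azgp1, a secreted class I-like glycoprotein, rose (0.69, adjusted p = 0.0493), and Raet1e, a ligand of the killer cell receptor NKG2D, fell (-1.25, adjusted p = 0.0117).

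The 16 other H2 genes of class I had means from -0.61 to 0.37, with 0 past the threshold. H2-Q7, which encodes the Qa-2 antigen, and H2-T23, which encodes Qa-1, lay at the low end. H2-Q7 read -0.66, -0.33, -1.63 and 0.19 and H2-T23 read -0.66, -0.36, -1.51 and 0.25, with means of -0.61 and -0.57. These values were alike, and so were the probes: 50 of 59 overlapping bases were the same. A stretch of 30 bases of each probe is shown because the readings of such a pair cannot be assigned to 1 gene with certainty, with the 6 bases that differ in capitals.
H2-Q7: tgatgaaTaggaggTgaAacaCaggtgGaC
H2-T23: tgatgaaGaggaggAgaCacaTaggtgTaA

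H2-Q10, a class I protein that the liver secretes, and H2-Q5 shared a run of 35 bases between their probes. H2-Q10 read -0.54, -0.10, -1.45 and 0.05 and H2-Q5 read -0.19, 0.10, -0.86 and 0.36. The other 3 probes of H2-Q10 had means of -0.08, 0.07 and 0.10, against -0.51 at the brightest. In all, 4 class I genes and 0 class II genes had a tested probe that shared 20 or more bases in a row with the tested probe of another member. The values of such pairs are uncertain for either gene. The H2-Q2 probe shared runs of 35 and 24 bases with probes outside the members. Probes were compared with probes and not with transcripts, so binding to other class I transcripts was not tested. This holds for H2-D1 too, whose array values lay close to those of H2-Q7 and H2-T23.

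The remaining genes of that group fell on both sides of 0. H2-M3, which presents formylated bacterial peptides, had a mean of -0.55 ± 0.20 (SE, adjusted p = 0.138), and its other probe had a mean of -0.11. H2-M9 had -0.38 and was above background on 2 of 4 arrays in the mice labelled Plin2-ASO. H2-Q2, H2-Q8 and H2-Q1 had -0.22, -0.02 and 0.01. H2-T10 and H2-T22, ligands of a gamma delta T cell receptor, had 0.06 and 0.22, and H2-T3, the thymus leukaemia antigen, had 0.21. H2-T24, H2-M10.2, H2-D4 and H2-Bl had 0.13, 0.15, 0.15 and 0.37.

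Without array 3, 5 class I genes passed the threshold, where 32.8% of all 18042 genes did, 12.4% higher and 20.3% lower. H2-Bl (0.60), Cd1d1 (0.49) and H2-K1 (0.42) rose and H2-M3 (-0.77) and Calr3 (-0.55) fell, with adjusted p-values from 0.00583 to 0.0461. These are values of the brightest probe of each gene, and further probes varied. On arrays 1, 2 and 4 the other H2-M3 probe read -0.42, -0.15 and 0.11. The further H2-K1 probes read -0.13, -0.16 and 0.13, and 0.27, 0.59 and 0.85. Those of H2-Bl read 0.67, 0.51 and 0.26, and 0.28, 0.36 and -0.42. Leaving out array 1, 2 or 4 instead left 0 class I genes past the threshold.

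The largest difference among the 53 member probes tested did not appear in the fit of 1 probe per gene, and it was singled out after the values were seen. The array has 3 probes named H2-Q1, a non-classical class I gene of the Q region. The brightest, designed on the transcript AK037574, lies at chr17:33480880-33480939 in build mm7, where the nearest member probe is that of H2-Q8, and read -0.13, -0.05, -0.27 and 0.49. The probe of NM_010390 at chr17:33416924-33418496 read 0.09, 0.26, 0.10 and 0.73. The probe of the transcript U96752, at chr17:33420381-33420440 on the plus strand, read -2.75, -2.67, -2.55 and -2.61, a mean of -2.64 ± 0.12 (SE, n = 4) or 6.25-fold lower, with an adjusted p of 0.000362 over the 25843 probes tested, of which 9.99% passed, 4.35% higher and 5.64% lower.

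The log2 level at that probe was 12.15, 12.28, 11.54 and 12.23 in the controls and 9.41, 9.61, 8.99 and 9.63 in mice 6, 7, 9 and 10. It was well above background in both channels on all 4 arrays, and by the size of its change it ranked 52 among those probes. It shared no run of 20 bases with another probe of the array, on either strand. The first 30 bases of the 3 probes are shown because their readings differ.
H2-Q1, AK037574: tgttccctgtgagcctatgggctcaatgtg
H2-Q1, NM_010390: agatcccccaaaggcacatgtgactcatca
H2-Q1, U96752: cactggacacatcttcaaagtgttgtaata

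The mean of the U96752 probe stayed between -2.81 and -2.58 under 5 other ways of processing and on leaving out each array. These checks cannot tell a dye effect of the probe from the treatment, since no array had the dyes exchanged. The place of the probe in an exon, intron or untranslated region was not analysed here, because no annotation of build mm7 was used. Of the 11 members with further kept probes, 7 had at least 1 probe of opposite sign, and 1 further probe of H2-Bl rose (0.57, adjusted p over probes 0.0487).

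**Figure D3:**
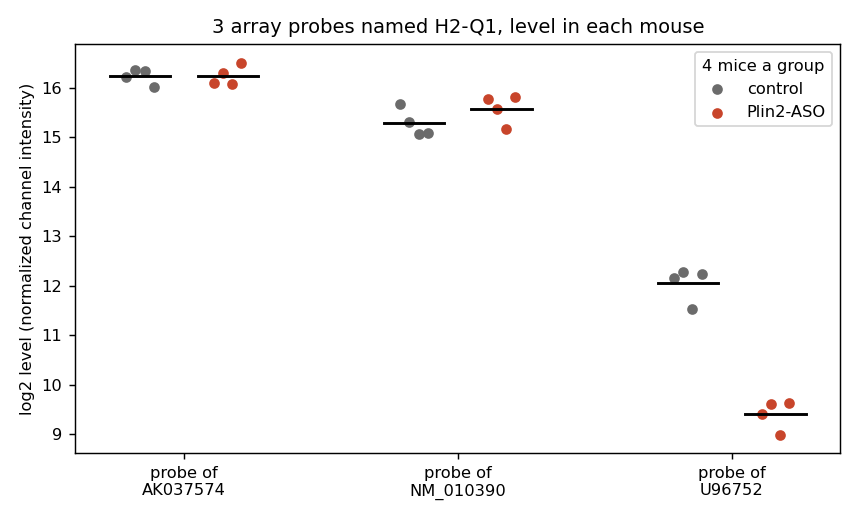
Log2 level (normalized channel intensity, y axis) of the 3 array probes named H2-Q1 in each of 4 control mice (grey) and 4 mice labelled Plin2-ASO (red), with black bars for group means. The probe of U96752 lies at 11.54 to 12.28 in the controls and 8.99 to 9.63 in the mice labelled Plin2-ASO, and the groups overlap at the other 2 probes.

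The genes of peptide supply were followed for each class. Of 13 genes that cut and prepare peptides for class II, 0 rose and 4 fell: the lysosomal proteases Ctsd (-1.08, adjusted p = 0.0111), Ctss, which trims the invariant chain (-1.51, adjusted p = 0.0227), and Lgmn (-0.90, adjusted p = 0.0273), and Ctsb (-0.85, adjusted p = 0.0306). Their list median was -0.37, -0.65, -0.36 and -0.28 on arrays 1 to 4. It was below 0 on array 4 too, where the class II chains were high. Of 14 genes that cut and load peptides for class I, 0 passed in limma's fit, 3 had an unadjusted p under 0.05, and the list median was 0.11.

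Regulators and interferon genes were read beside them. Of 15 transcription factors of MHC genes, Irf2, an interferon regulatory factor, rose (0.78, adjusted p = 0.0130), and Spi1, the PU.1 factor of myeloid and B cells (-0.93, adjusted p = 0.0229), and Nfya, a subunit of the Y box factor (-0.71, adjusted p = 0.0240), fell. Of 17 genes of interferon gamma signalling, the GTPase Iigp1 rose (1.12, adjusted p = 0.0412) and the receptor chain Ifngr1 fell (-0.93, adjusted p = 0.0246). The median of that list was -0.22, 0.07, 0.67 and 1.06 on arrays 1 to 4, the highest on array 4, as in class II, but above 0 on array 3, where class II was below it. The immunoproteasome genes Psmb9 and Psmb8, which lie between the class II genes on chromosome 17, read -0.36, -0.29, 0.16 and 0.98 and 0.04, 0.14, 0.15 and 1.38, and neither passed the threshold. Tap1 and Tap2 lie in the same stretch and, at 0.88 and 0.83, were likewise highest on array 4. Brd2, the only gene tested there that is neither a member nor a proteasome gene, read -0.45, -0.35, -0.35 and -0.52 and was below 0 on all 4 arrays. Of 18 targets of type I interferon 2 rose, Irf7 and Ifit3, and 0 fell.

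Markers of the cells that carry class II moved as follows, and their part in the class II values was not tested. Of 12 dendritic cell markers 0 rose and 2 fell, Itgax (-1.43, adjusted p = 0.0108) and Ccr7 (-0.66, adjusted p = 0.0279), and the list median was -0.38, -0.28, -0.24 and 0.14 on arrays 1 to 4. Their summed intensity was 5600 to 7468 in the controls and 4420 to 6067 in the mice labelled Plin2-ASO. Ccr7 was well above background on 4 arrays in the controls and on 0 in the mice labelled Plin2-ASO. It thus passed the filter on background only through the controls, and the size of its fall is uncertain. Cd209a, Siglech and Itgae did not pass that filter. Of 11 macrophage markers 0 rose and 5 fell, with array medians of -1.22, -1.53, -0.22 and -0.52 and a summed intensity of 70510 to 146235 in the controls and 29663 to 52034 in the others. Of 7 markers of Kupffer cells, the resident macrophages of the liver, 6 rose and 1, Cd5l, fell, with a list median of 2.48. The summed intensity of the 5 measured on all arrays, Cd5l included, was 60342 to 88211 in the controls and 52307 to 77411 in the others. In the controls Cd5l was by far the brightest of these 5, at a mean log2 level of 15.96. Cd163, Vsig4, Folr2 and C6 lay at 8.41, 8.16, 8.71 and 12.09 there. The control sum therefore mostly reflects Cd5l, the marker that fell, and the sums leave out Clec4f and Marco, which rose. The 12 B cell markers had array medians of -0.04, -0.31, -0.10 and -0.11. On array 4 the macrophage and B cell medians were below 0 while the class II median was 0.67, and the dendritic cell median was above 0. There 8 of the 12 dendritic cell markers were above 0, but Itgax and Ccr7, the 2 that fell, read -1.10 and -0.76.

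**Figure D4:**
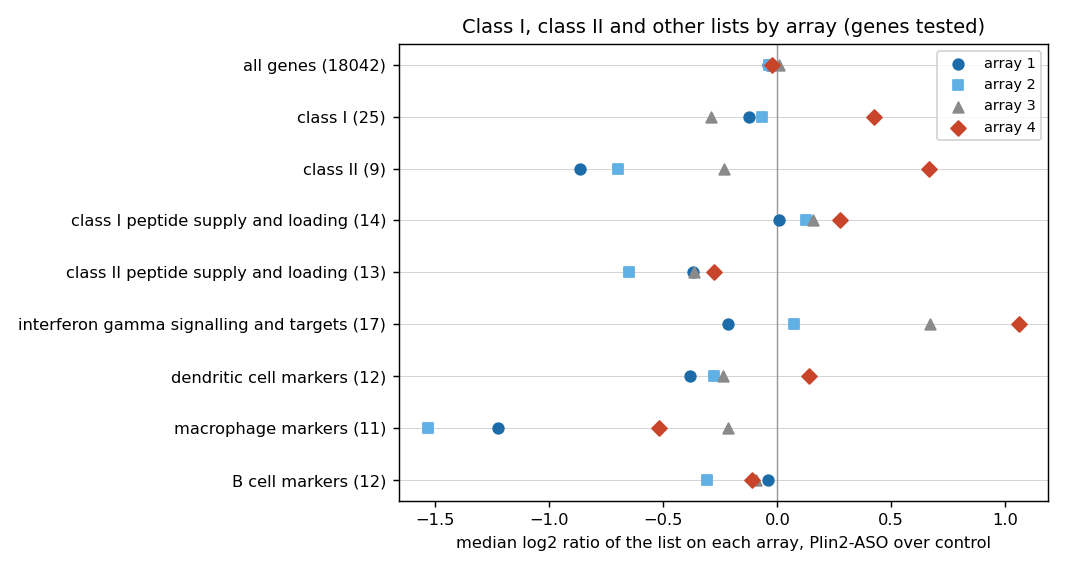
Median log2 ratio of the livers labelled Plin2-ASO over control on each array (x axis) for all genes, class I, class II and 6 other lists (y axis, genes tested in brackets), with 1 symbol per array. Class II runs from -0.86 on array 1 to 0.67 on array 4, and class II peptide supply stays below 0 on all 4 arrays.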

How the data were processed

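Per the file headers, the authors' spot intensities came from Feature Extraction 9.5.1.1. The deposited mean signal and median local background intensity of each spot were used, and the deposited log10 ratios, red over green, served as an alternative. Per the labels, about 50 ng of liver RNA per mouse was amplified with the Ovation aminoallyl system. The slide and the scan were the same for all arrays.

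From these intensities, normexp background correction with an offset of 50 was followed by loess within each array in limma 3.58.1 (R 4.3.3, with statmod 1.5.0 and the package data.table, version 1.17.8), with control spots at weight 0. Spots marked as outliers were left out, and a probe's replicate spots were averaged. Levels of single mice come from both channels after quantile normalization of the average intensities. Of 41174 probes 27160 passed the background filter. The brightest probe stood for each gene, and 18042 of 18639 genes were measured on at least 3 arrays and tested against 0 (lmFit and eBayes, two-sided, 7.21 degrees of freedom, Benjamini-Hochberg over all genes). Standard errors are the moderated ones, and p-values over probes come from the same fit on the 25843 kept probes measured on at least 3 arrays. The number of arrays limits the precision.

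Names came from the array files or, for genes other than members, from the reference table of GRCm38.p6 by accession (22951 probes), other accession (131), symbol (6582) or older symbol (3073). The other 8437 probes kept their array name. Positions of probes are as the array files give them, in build mm7. Every member is accounted for, and values on each array are given for members past the threshold, the classical chains, Cd74, Ciita, the Tap genes, Tapbp and the highest and lowest member. Of other lists, up to 3 genes past the threshold with the smallest p are named. A gene that this rule chose is not reported here. Array values of other members, Ctsb, Psmb8, Psmb9 and Brd2 were added after the values were seen. The members and the 13 gene lists were chosen with earlier results of these data known.

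The alternatives were leaving out each array, the mean of all kept probes, outlier spots kept, median centring, an offset of 16, no background correction, scaling between arrays, the scanning software's ratios, no background filter or a strict one, separate channels, and eBayes with trend and robust. Fitting every kept probe measured on at least 3 arrays was added after the data were seen.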

Additional observations from a re-analysis of the deposited data

Results flagged for a closer look

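Among the 31 members measured on all 4 arrays, 2 had a reading on 1 array that lay far from the other 3 against the range of the 4 readings. Chance alone gives about 1 such case in 20 groups. Ciita (C2ta in the files) read 1.11 on array 4 and between -0.15 and 0.06 on arrays 1 to 3. Tap2 read 0.83 on array 4 and between -0.12 and 0.04 on the other arrays. Both readings come from the array of mouse 10. The levels of mouse 10 were 8.99 for Ciita and 11.92 for Tap2, above the 4 controls, whose highest levels were 7.93 and 11.37.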

How the results depend on the processing

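No class II gene passed the threshold in limma under any alternative run, with 0 to 5 genes at an unadjusted p under 0.05. The class II median stayed below 0 throughout, from -0.57 to -0.06, and class II minus class I from -0.47 to -0.15, while the class I median ran from -0.13 to 0.16 and changed sign. The count of class I genes was 1 in the reported fit. It was 0 with median centring, an offset of 16, the strict filter, the software's ratios, outlier spots kept, or trend and robust moderation. It was 2 with separate channels (Calr3 and Cd1d1), where the intraspot correlation was 0.135, and 2 with the mean of all kept probes (Cd1d1 and H2-Q1). It was 3 when each kept probe measured on at least 3 arrays was fitted on its own (Cd1d1, H2-Bl and H2-Q1). On leaving out 1 array at a time it was 0 to 5. Under the first 6 of these, the adjusted p of Cd1d1 was 0.0512 to 0.0706. H2-Q1 turned from 0.01 to -0.78 (adjusted p = 0.0152) with the mean of all kept probes, since that mean takes in the probe of U96752. The cause of the other changes was not tested. Over all genes 932 passed with trend and robust moderation, against 1760. The fit was already paired by array, because each ratio sets 1 mouse of each group side by side. With 4 arrays and no dye exchange, differences of the size seen in class II lie within the spread between arrays.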

Other observations

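Of genes outside the member rule, Erap1, the aminopeptidase that trims class I peptides in the endoplasmic reticulum, had a mean log2 ratio of 0.29 (adjusted p = 0.306). H2-Eb2, a class II beta chain listed under a clone name in the array files, had 0.41 (adjusted p = 0.235). Between all H2 members on chromosome 17 lay 129 other genes tested, of which 2 rose and 8 fell, with a median of -0.09 and array medians of -0.11, -0.06, -0.16 and 0.06. On array 4 that median was below the class I median of 0.42 and the class II median of 0.67.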
